A study of Drosophila melanogaster with 2 samples.

Results

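Genes for the protein subunits of oxidative phosphorylation were described for regions bound by CG6654 in embryos of Drosophila melanogaster. They were chosen by name alone: protein-coding genes of the Ensembl BDGP6 annotation on the nuclear arms whose symbol starts with ND-, UQCR-, ATPsyn or Sdh, or with COX and a digit. This gave 88 of 13968 protein-coding genes, of which 40 belong by symbol to complex I, 8 to complex II, 9 to complex III, 16 to complex IV and 15 to complex V. One of the genes with an Sdh symbol, Sdhaf3, is named as an assembly factor and not as a subunit. Another 24 carry a symbol that ends in L or in L and a digit, the form that marks a gene "like" another subunit gene, and are called like-named here; ND-MNLL, whose letters spell residues of the protein, was not counted among them.

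The regions come from chromatin immunoprecipitation and sequencing (ChIP-seq) of 1 group with 2 biological replicates, numbered 1 and 3. The embryos were of mixed sex, were collected whole at 0 to 12 h of development, and came from a transgenic line that stably makes CG6654, a zinc finger protein, with GFP at its C terminus; the precipitation used an antibody against GFP per the description, while the antibody label names CG6654. Every sample carries the tagged protein, no untagged sample was analysed here, and whether the untagged gene is still present is not stated in the labels. Nothing about the spread between conditions can be tested with 1 group, and in whole embryos a site bound in few nuclei and a site bound weakly in many cannot be told apart.

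Oxidative phosphorylation makes ATP in the inner mitochondrial membrane. Complex I (NADH dehydrogenase, ND- symbols) and complex II (succinate dehydrogenase, Sdh) feed electrons to ubiquinone, complex III (UQCR) passes them to cytochrome c, complex IV (COX) passes them to oxygen, and complex V (ATP synthase, ATPsyn) uses the proton gradient that results. Most subunits are encoded in the nucleus and a core set in mitochondrial DNA, and the early fly embryo starts with mitochondria and transcripts supplied by the mother. Many like-named respiratory genes of the fly are known for expression in the testis.

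Each region has a summit and a signal value given by the authors, with no stated scale, so values are compared within a list only. The IDR set, regions kept for their reproducibility between replicates (IDR stands for irreproducible discovery rate), comprised 2962 peaks with signals of 74.8 to 8385 and a median of 129. The lists made without a threshold, 1 for each replicate and 1 for the pooled reads, had 30000 regions apiece, a fixed length; those of replicate 1, replicate 3 and the pooled reads reached down to signals of 12.6, 12.4 and 19.7. As deposited, those lists hold background as well as peaks, so a region in them alone may be background. The lists carry no read totals, so depth is unknown, and the 95% Wilson intervals given below cover counting error over genes only. Below, bound means that an annotated start site of the gene had an IDR summit no more than 500 bp away.

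Few of the subunit genes were bound, and each of those few shares its bound stretch with a gene that starts in the opposite direction. That layout is common among bound genes. Of all 1524 bound protein-coding genes, 937 had an opposite-strand start of another protein-coding gene within 1000 bp upstream. IDR summits lay at 5 of the 88 genes (5.68%, Wilson interval 2.45 to 12.6, which takes in the 10.9% of all protein-coding genes bound). Complex I accounted for 4 of them, ND-ASHI, ND-MWFE, ND-SGDH and ND-51, and complex V for the fifth, ATPsynE. Each lies on a different chromosome arm. The DNA of 4 of these stretches is shown because the summits lie inside it, between the start sites of both genes. The second gene of each stretch was taken as the nearest protein-coding one that starts on the opposite strand past the summit. Sequences are the plus strand of Release 6 (dm6), 5′ to 3′, with the 21 bases centred on the IDR summit in capitals, and none is shown for ND-MWFE. The first stretch, X:6679236-6679535, holds the 300 bases around the summit between ND-ASHI and Fum1. The others run from the first base past the start of one gene to the last base before the start of the other, at 3L:12138585-12138867 (ND-SGDH and RhoGAP68F), 2L:6062758-6062988 (ND-51 and CG13994) and 3R:14326690-14326946 (ATPsynE and Afti). The annotation places no coding or untranslated exon base in any of them.

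ND-ASHI: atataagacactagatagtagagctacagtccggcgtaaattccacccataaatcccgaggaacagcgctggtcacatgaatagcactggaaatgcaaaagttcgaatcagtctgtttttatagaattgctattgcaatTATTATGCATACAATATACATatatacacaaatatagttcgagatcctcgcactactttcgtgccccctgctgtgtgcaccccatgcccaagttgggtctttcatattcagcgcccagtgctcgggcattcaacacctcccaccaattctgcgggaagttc

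ND-SGDH: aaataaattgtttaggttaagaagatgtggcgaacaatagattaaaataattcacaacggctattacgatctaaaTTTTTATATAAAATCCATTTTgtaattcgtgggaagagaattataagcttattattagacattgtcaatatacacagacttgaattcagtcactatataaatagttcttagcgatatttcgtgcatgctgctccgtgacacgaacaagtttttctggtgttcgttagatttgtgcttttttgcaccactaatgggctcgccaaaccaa

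ND-51: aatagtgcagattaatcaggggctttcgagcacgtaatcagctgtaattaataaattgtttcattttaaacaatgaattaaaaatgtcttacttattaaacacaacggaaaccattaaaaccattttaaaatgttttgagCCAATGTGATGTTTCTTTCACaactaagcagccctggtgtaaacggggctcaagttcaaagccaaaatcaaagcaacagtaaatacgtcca

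ATPsynE: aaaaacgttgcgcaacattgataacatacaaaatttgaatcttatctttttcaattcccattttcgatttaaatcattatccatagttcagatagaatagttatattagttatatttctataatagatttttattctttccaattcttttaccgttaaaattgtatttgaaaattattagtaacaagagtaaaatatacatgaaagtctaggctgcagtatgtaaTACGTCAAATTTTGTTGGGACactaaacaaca

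The printed stretches had a GC content of 44.3% for ND-ASHI, 32.9% for ND-SGDH, 33.8% for ND-51 and 25.3% for ATPsynE. Within 50 bases on either side of the summits GC was 30.7% at ND-ASHI, 28.7% at ND-MWFE, 23.8% at ND-SGDH, 39.6% at ND-51 and 31.7% at ATPsynE. The median was 32.7% over all IDR peaks at protein-coding start sites and 43.6% in windows 200 to 300 bp from IDR summits, so the 5 summits lie on both sides of the median for bound start sites and all below that of the flanks.

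**Figure D1:**
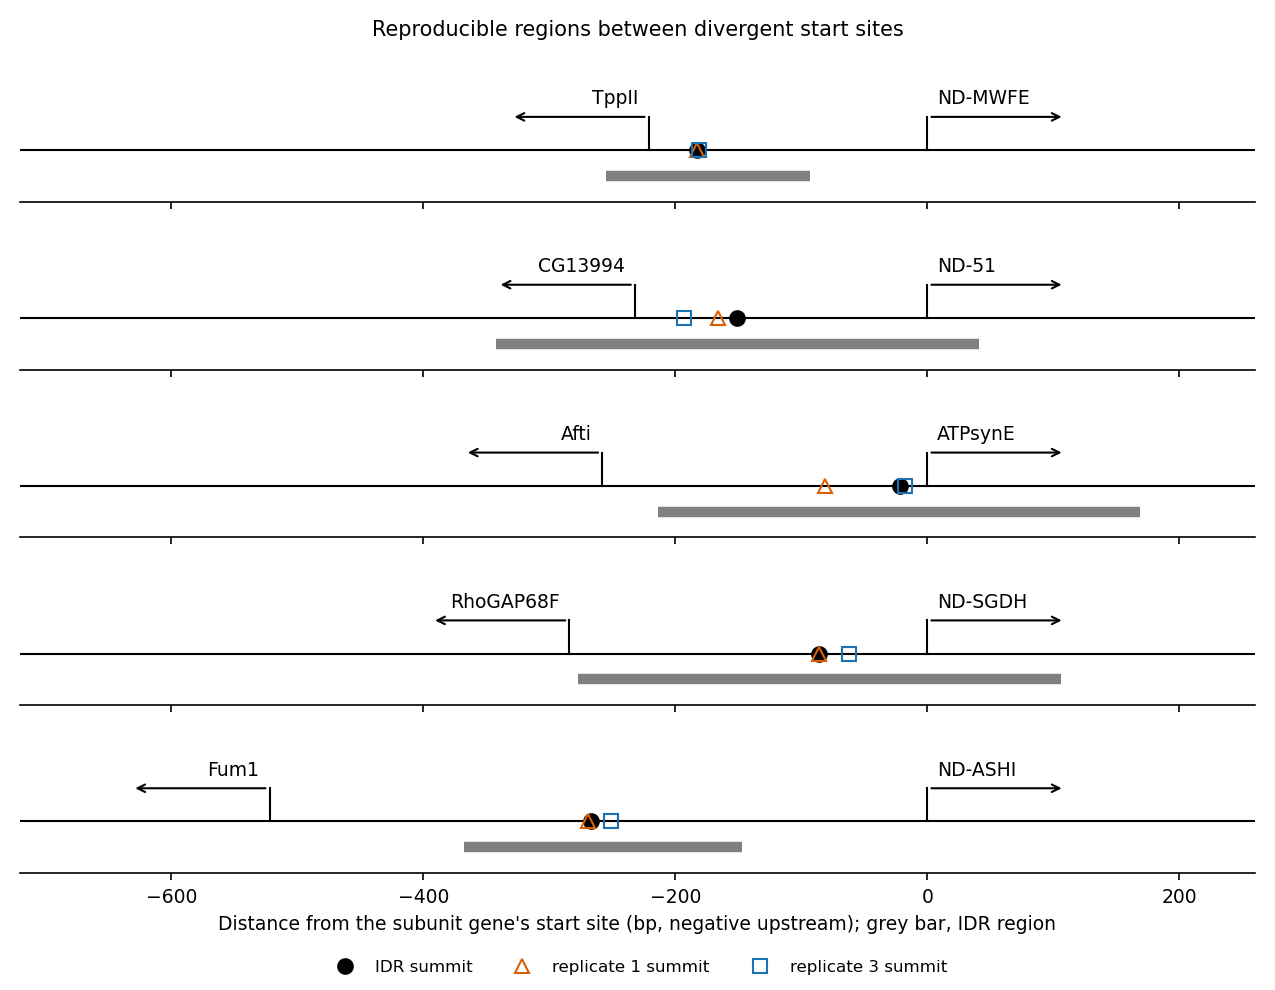
Position of the IDR summit (filled circles) and of the replicate 1 and replicate 3 summits (open triangles and squares) at the 5 bound subunit genes; the x axis is the distance in bp from the subunit gene's start, drawn so that the subunit gene reads to the right, arrows mark both starts and their direction, and grey bars mark the IDR regions. All 15 summits lie between the divergent starts drawn, which are 221 to 522 bp apart. The neighbour's start was taken as the nearest protein-coding start on the opposite strand past the IDR summit. An IDR summit upstream of the subunit gene therefore lies between the starts by that choice.

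ND-ASHI encodes an accessory subunit in the membrane arm of complex I (FBgn0029888; X, 6677262 to 6679118, minus strand, 3 annotated start sites). Its signal was 104 in replicate 1, 150 in replicate 3 and 262 in the pooled reads and the IDR set, which was rank 518 of 2962. The region (X, 6679265 to 6679486) was the highest of the 5 in every list. The summit lay 267 bp upstream of the outermost start of ND-ASHI and 255 bp from a start of Fum1, which encodes fumarase of the tricarboxylic acid (TCA) cycle, so the peak is nearly halfway between a respiratory gene and a TCA gene. The annotation puts it in an intron of Fum1, because a longer Fum1 transcript starts within the span of the longest ND-ASHI transcript. That start and the next start of ND-ASHI lie 164 bp apart, and the peak is more than 500 bp from both.

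ND-MWFE encodes a small membrane subunit of complex I (FBgn0085468; 2R, 13158666 to 13160190, plus strand, 1 start site). Its signal was 89.5 in replicate 1, 94.9 in replicate 3 and 187 in the IDR set (rank 881; 2R, 13158411 to 13158573). The summit was 183 bp upstream of ND-MWFE and 38 bp from a start of TppII, which encodes tripeptidyl peptidase II, and it lies in an intron of a longer TppII transcript. The replicate summits differed by 2 bp at most from that of the pooled reads, at 183 bp and 181 bp from ND-MWFE.

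ATPsynE encodes subunit E of ATP synthase (FBgn0038224; 3R, 14326947 to 14327735, plus strand, 2 start sites). Its signal was 39.6 in replicate 1, 73.8 in replicate 3 and 114 in the IDR set (rank 1752; 3R, 14326733 to 14327116). The summit lay between genes, 22 bp upstream of ATPsynE and 236 bp from the start of Afti, which encodes the trafficking protein Aftiphilin. In replicate 1 the summit was 81 bp and in replicate 3 18 bp from the ATPsynE start.

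ND-SGDH encodes another membrane-arm subunit of complex I (FBgn0011455; 3L, 12137496 to 12138584, minus strand, 2 start sites). Its signal was 40.6 in replicate 1, 64.6 in replicate 3 and 107 in the IDR set (rank 1887; 3L, 12138478 to 12138861). The summit was 86 bp upstream of ND-SGDH and 198 bp from RhoGAP68F, again between genes.

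ND-51 encodes the core flavoprotein subunit at which complex I oxidises NADH (FBgn0031771; 2L, 6060842 to 6062757, minus strand, 2 start sites). Its signal was 23.7 in replicate 1, 50.6 in replicate 3 and 77.1 in the IDR set (rank 2872; 2L, 6062716 to 6063099). That is just above the lowest IDR signal of 74.8. In replicate 1 its region ranked 5369, outside the 2962 highest, so ND-51 was the bound member that replicate 1 placed lowest. The summit was 151 bp upstream of ND-51 and 81 bp from CG13994.

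Among the 5 bound genes the nearest start was the subunit gene's own at ATPsynE and ND-SGDH, and the neighbour's at ND-ASHI, ND-MWFE and ND-51. With those 3 left out, 2 subunit genes were bound. Summits were upstream of the subunit gene in all 5. Over all protein-coding genes with an IDR summit, 1337 of 1524 had it upstream of the nearest own start. The median signal of the 5 was 114, against 142 over the 1524 bound protein-coding genes, and their highest value of 262 stands beside 7101 over all of them.

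Divergent layouts were common among the subunit genes, bound or not. A start of another protein-coding gene on the opposite strand lay within 1000 bp upstream of 44 of the 88 genes, against 36.2% of all protein-coding genes. The median spacing was 228 bp for the subunit genes and 298 bp for all such protein-coding genes. Of these 44 genes 5 were bound (11.4%, Wilson interval 4.95 to 24.0), beside 18.5% of all protein-coding genes with a divergent start. None of the 44 genes without one was bound (Wilson interval up to 8.03%), beside 6.58% of all such protein-coding genes. Mitochondrial ribosomal protein genes had 14 of 58 divergent genes and 0 of 15 others bound, and cytosolic ribosomal protein genes 38 of 55 and 17 of 37. Respiratory genes outside the naming rule and assembly factors each had 1 of 5 divergent genes and 1 of 4 others bound, and genes for mitochondrial DNA 1 of 9 and 1 of 4. Genes of the TCA cycle and pyruvate dehydrogenase had 4 of 8 and 0 of 7 bound, and nuclear regulators of mitochondrial genes 1 of 4 and 0 of 4. The rule on divergent layouts was chosen after the 5 summits had been seen, and none of these differences was tested.

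Weaker regions lay at more of the subunit genes, and most of those came from replicate 3. The pooled list had a summit within 500 bp of 29 of the 88 genes (33.0%, Wilson interval 24.0 to 43.3), against 37.1% of all protein-coding genes. In replicate 3 there were 50 (56.8%, Wilson interval 46.4 to 66.7) against 46.0%, and in replicate 1 there were 15 (17.0%, Wilson interval 10.6 to 26.2) against 26.6%. The share of subunit genes thus stands above that of all protein-coding genes in replicate 3 and below it in replicate 1. A region in replicate 3 with none in replicate 1 was found at 40 of the 88 genes (45.5%, Wilson interval 35.5 to 55.8), against 28.4% of all protein-coding genes, and the converse at 5 (5.68%), against 9.03%. Regions in both replicate lists were present at 10 (11.4%), against 17.6%. Beside a shared protocol, the labels attach a further document to each replicate that is not the same for both, and its part in these differences was not tested.

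The replicate 3 regions at subunit genes were mostly of low rank. Their signals ran from 12.4 to 150 with a median of 21.6, against a median of 26.7 over all protein-coding genes with a replicate 3 region. In replicate 1 the range was 12.9 to 104 with a median of 20.2, against 21.1. In the pooled list it was 20.4 to 262 with a median of 44.2, against 40.9. Among the 2962 highest regions of each list, replicate 1 had a summit at 4 subunit genes (background 9.19%), replicate 3 at 6 (background 11.5%), and both at the same 4 (4.55%, background 7.68%). ND-51 was the bound gene missing from these 4. Over the 10 genes with a region in both replicate lists the signals had a Spearman coefficient of 0.855, and over all 2457 such protein-coding genes 0.836; genes that share a peak are counted separately in both.

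**Figure D2:**
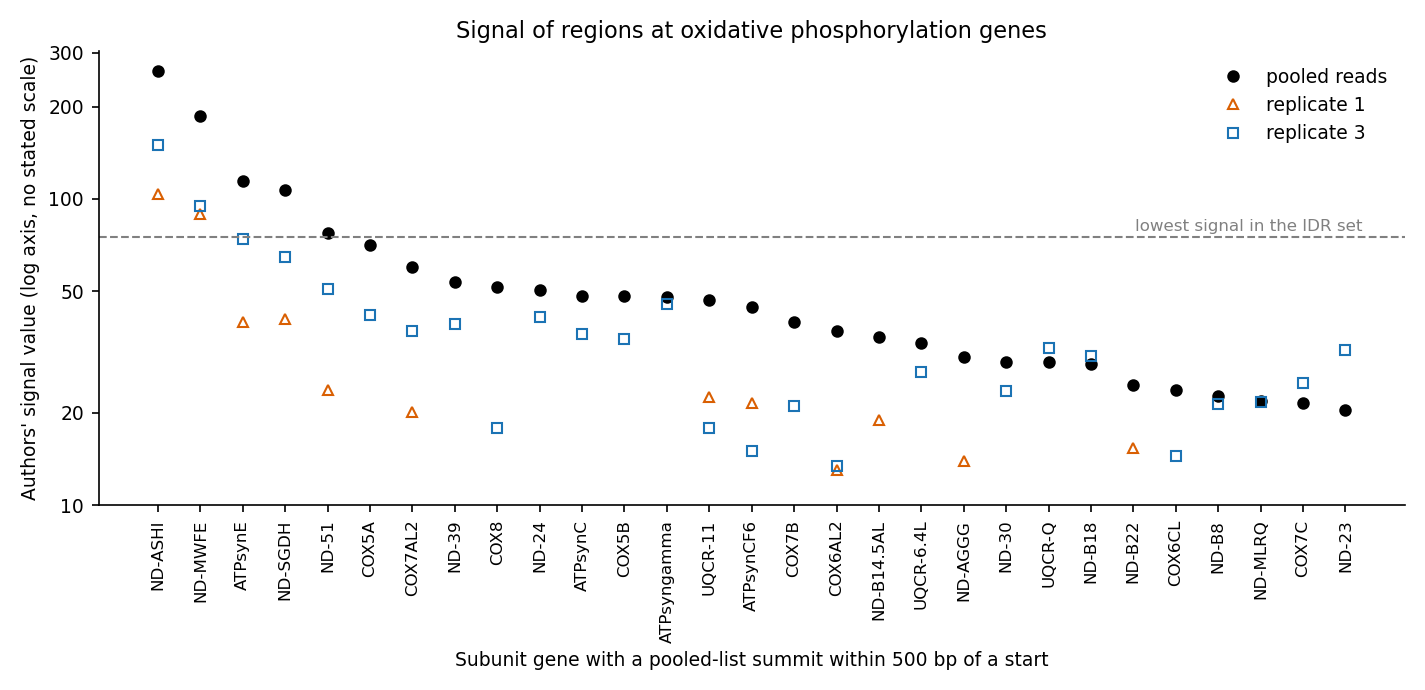
Signal value of the strongest region within 500 bp of a start at the 29 subunit genes with a pooled-list summit, ordered by pooled signal, on a log axis; circles are pooled reads, triangles replicate 1 and squares replicate 3, and the dashed line is the lowest IDR signal of 74.8. Only the first 5 genes lie above the line, and triangles are missing for many genes that have a square.

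Of the 34 complex I genes that are not like-named, 4 were bound (11.8%, Wilson interval 4.67 to 26.6), against 10.9% of all protein-coding genes. A pooled region was present at 13 of the 34 (38.2%, Wilson interval 23.9 to 55.0), against 37.1%. Both intervals take in the share of all protein-coding genes. ND-39, an accessory subunit, had a pooled signal of 53.4 and 38.9 in replicate 3. ND-24, which encodes a core iron-sulfur subunit that partners ND-51, had 50.3 in the pooled list and 41.1 in replicate 3, beside the divergent gene corolla. Neither had a region in replicate 1. ND-30 and ND-B18 had pooled signals of 29.4 and 28.8 and were likewise absent from replicate 1, whereas ND-AGGG (30.4) and ND-B22 (24.7) had regions in replicate 1 and none in replicate 3. The largest replicate 3 region with no counterpart in the pooled list or in replicate 1 lay at ND-42, at a signal of 60.7 and rank 2132. Its summit was 146 bp upstream of ND-42 and nearer to Cchl, which encodes cytochrome c heme lyase; ND-42 was singled out after its values were seen.

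Complex II had no IDR or pooled summit at any of its 8 genes (Wilson intervals up to 32.4%). Over all protein-coding genes the shares were 10.9% and 37.1%. SdhB, the iron-sulfur subunit, had a region of signal 17.8 in replicate 1, 472 bp inside the gene. SdhC (21.4) and SdhD (16.3), the membrane anchors, had regions in replicate 3 only. The catalytic gene SdhA had none in any list.

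Complex III had no bound gene among 9 (Wilson interval up to 29.9%), against 10.9% of all protein-coding genes. A pooled region was present at 3 of the 9 (33.3%), against 37.1%. UQCR-11 reached 46.7 in the pooled list, with 22.5 in replicate 1 and 17.9 in replicate 3, and UQCR-Q reached 29.3, with 32.7 in replicate 3 only. UQCR-6.4 had 43.0 in replicate 3 and no pooled region. UQCR-C1, a core subunit, had no region.

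Complex IV had no bound gene among 16 (Wilson interval up to 19.4%), against 10.9% of all protein-coding genes. A region was present in replicate 3 at 13 of the 16 (81.2%, Wilson interval 57.0 to 93.4), against 46.0%, and in the pooled list at 8 (Wilson interval 28.0 to 72.0%), against 37.1%. The intervals for the IDR set and the pooled list take in the share of all protein-coding genes. In replicate 3 the −log10 q-values of the complex IV regions ran from 0.188 at COX6AL2 to 3.89 at COX5A. Only those at COX5A, COX5B, COX6B and COX7AL2 reached 2, so many of these regions may be background. COX5A came nearest to the IDR set of all unbound subunit genes, with a pooled signal of 70.9 at rank 3165 and 41.8 in replicate 3, and it had no region in replicate 1. Its summit lay between the genes' starts, 102 bp from one of COX5A and 77 bp from one of glo, an RNA-binding protein gene on the opposite strand. The like-named COX7AL2 came next in the pooled list (59.8) and had a region in both replicates. Among the complex IV genes that are not like-named COX8 (51.5), COX5B (48.2) and COX7B (39.5) followed, each with replicate 3 signals (17.8, 34.8 and 21.1) and none in replicate 1. In replicate 1 the 3 complex IV genes with a region were all like-named: COX7AL2, COX6AL2 and COX6AL.

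Beside 10.9% and 37.1% of all protein-coding genes, complex V had 1 bound gene of 15, and 4 with a pooled region. Besides ATPsynE these were ATPsynC, the proton-carrying ring subunit (48.3), ATPsyngamma, the rotating stalk (47.9), and ATPsynCF6, coupling factor 6 (44.2). ATPsynC and ATPsyngamma had replicate 3 signals of 36.3 and 45.2 and none in replicate 1, while ATPsynCF6 had 21.6 in replicate 1 and 15.0 in replicate 3. ATPsynCF6 also had an IDR summit 971 bp away and was the next gene to be reached with a window of 1000 bp.

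**Figure D3:**
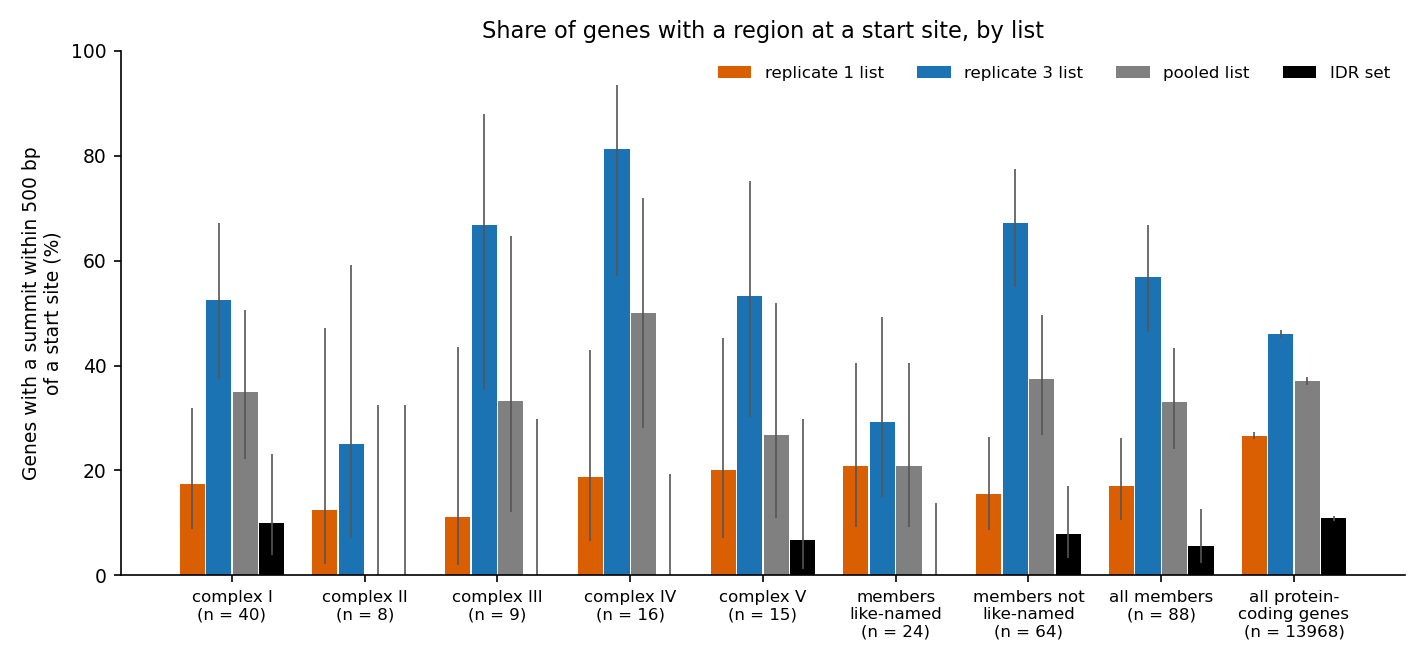
Share of genes (y axis, %) with a summit within 500 bp of a start in the replicate 1, replicate 3, pooled and IDR lists, for each complex, for like-named members and the others, for all 88 members and for all 13968 protein-coding genes; error bars are 95% Wilson intervals. Among the complexes, I and V have IDR bars and IV has the tallest replicate 3 bar, at 81.2%.

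Like-named genes had fewer regions than the other subunit genes in replicate 3. None of the 24 was bound (Wilson interval up to 13.8%), against 5 of 64 others and 10.9% of all protein-coding genes. A replicate 3 region was present at 7 of 24 (29.2%, Wilson interval 14.9 to 49.2), against 43 of 64 others (67.2%, Wilson interval 55.0 to 77.4), whose intervals do not overlap. The share of all protein-coding genes, 46.0%, lies inside the like-named interval and below that of the others. In replicate 1 the counts were 5 of 24 (20.8%) and 10 of 64 (15.6%), whose intervals overlap, against 26.6% of all protein-coding genes. Promoter layout differed too: among like-named genes only ATPsynbetaL, ATPsynepsilonL, COX7AL and SdhBL had a divergent start within 1000 bp. Replicate 3 had a region at 31 of the 44 subunit genes with a divergent start and at 19 of the 44 without. The part of layout in the like-named difference was not tested. The strongest like-named region was at COX7AL2, with 59.8 in the pooled list, 20.2 in replicate 1 and 37.0 in replicate 3, and lay in its 5′ UTR. COX6AL2 (36.9), ND-B14.5AL (35.3), UQCR-6.4L (33.7) and COX6CL (23.8) were the others in the pooled list. No region of any list lay at 15 of the 24 like-named genes and at 18 of the 64 others. In all, 33 of the 88 genes had none (37.5%), against 43.0% of all protein-coding genes.

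The nearest IDR summit was 22 bp to 2241825 bp from the start sites of the 88 genes, with a median of 10112 bp, against 13209 bp over 13945 protein-coding genes on arms with IDR peaks. The curves cross: 34.1% of subunit genes had an IDR summit within 5000 bp, against 28.2% of all protein-coding genes, although fewer had one within 500 bp. The medians were 16489 bp for like-named genes and 7724 bp for the others. The outer end was set by UQCR-11 and ND-AGGG on 3L, at 2241825 bp and 2097370 bp.

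**Figure D4:**
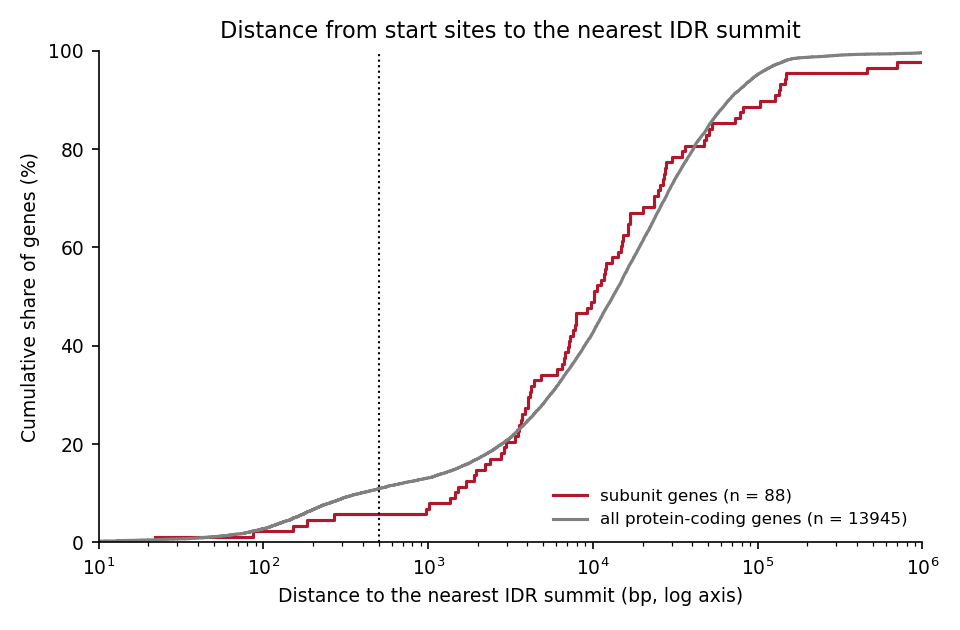
Cumulative share of genes (y axis, %) by the distance from their start sites to the nearest IDR summit (x axis, bp, log scale), for the 88 subunit genes and for all protein-coding genes on arms with IDR peaks; the dotted line marks 500 bp, and the few genes with larger distances than the axis shows are counted in the shares. The curve of the subunit genes lies below that of all genes at 500 bp and above it at 5000 bp and 10000 bp.

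The word that sets IDR summits apart from their flanks was not found within 50 bases of a summit at a bound subunit gene. Over all IDR peaks the word of 8 bases with the largest excess was ACAGTTTG (reverse complement CAAACTGT), present within 50 bases of 5.60% of the summits and in 0.692% of flank windows. It was in 0 of the 5 at subunit genes, against 2.55% of all IDR peaks at protein-coding start sites. With 1 mismatch allowed it was in 0 of the 5 and in 16.9% of the IDR peaks at start sites. Within 100 bases of the summit and with 1 mismatch it was in 1 of the 5, against 27.7% of the IDR peaks at start sites. With shares this low, 5 peaks are too few to show a difference.

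Core promoter motifs were searched on both strands in windows from 250 bases before to 50 bases after each start. The DRE core TATCGATA, bound by the factor Dref, was present at 13 of the 88 subunit genes (14.8%), against 10.2% of all protein-coding genes, and at 3 of the 5 bound ones, against 13.1% of all bound protein-coding genes. These 3 were ATPsynE, ND-SGDH and ND-ASHI. None of the 3 matches lay within 50 bases of the summit. At ATPsynE the match was 129 bp and at ND-SGDH 153 bp from the summit, in both cases downstream of the outermost start and 14 bp and 44 bp from an inner one. At ND-ASHI it lay in the window of a start other than the one beside the peak, and no match lay within 1000 bp of that summit. The 2 nearer matches are shown on the plus strand of dm6 with the core in capitals, at 3R:14327040-14327067 and 3L:12138503-12138530.

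ATPsynE DRE: ccaatacaacTATCGATAgccgcctgtc

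ND-SGDH DRE: tgttttgataTATCGATAacagcagaga

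Motif 1, the core promoter element bound by M1BP, was present at 15 of the 88 genes (17.0%), against 4.95% of all protein-coding genes. Of the 5 bound genes only ND-MWFE held it, 211 bp from the summit and outside the IDR region. All 15 were among the 64 genes that are not like-named (23.4%), as were all 13 with the DRE core (20.3%); none of the 24 like-named genes held either. Of the 15 with Motif 1, 10 had a region in replicate 3 and 1 in replicate 1, and of the 13 with the DRE core 10 and 3 had. Over all protein-coding genes with Motif 1 the shares were 66.6% in replicate 3 and 24.1% in replicate 1, and with the DRE core 63.1% and 20.3%. Protein-coding genes without Motif 1 had a replicate 3 share of 44.9%, and those without the DRE core 44.1%, both lower than with the motif. Among the subunit genes that are not like-named, a replicate 3 region was present at 10 of 15 with Motif 1 (66.7%) and 33 of 49 without it (67.3%), so these shares hardly differ, and at 10 of 13 with the DRE core (76.9%) and 33 of 51 without it (64.7%). In replicate 1 the counts were 1 of 15 with Motif 1 (6.67%) and 9 of 49 without it (18.4%), and 3 of 13 with the DRE core (23.1%) and 7 of 51 without it (13.7%). At these subunit genes the motifs thus go opposite ways in replicate 1, on few genes with a region. Over all protein-coding genes they go the same way there. The replicate 1 share was 24.1% with Motif 1 and 26.7% without it, and 20.3% with the DRE core and 27.3% without it. None of these differences was tested. The E-box CACGTG was at 4 subunit genes (4.55%, against 5.33%), GAGAGA at 7 (7.95%, against 17.1%), and the nuclear respiratory gene element, described upstream of fly respiratory genes, at 1, ATPsynC, in its strict consensus (1.14%, against 0.193%). A match of letters is no evidence of binding, and no match says only that these letters are not in the window.

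Some other genes of the same or neighbouring pathways were bound. The counts are small because the lists are short, and 10.9% of all protein-coding genes were bound. Of 9 respiratory chain and ATP synthase genes whose symbols fall outside the naming rule, 2 were bound: Cyt-c-d, a cytochrome c gene (IDR signal 338), and blw, the alpha subunit of ATP synthase (111, with 31.0 and 87.0). Of 9 assembly factors, 2 were bound: CIA30, for complex I (432, with 150 and 266), and Cox17, a copper chaperone for complex IV (114, with 40.7 and 82.5). Of 15 genes of the TCA cycle and pyruvate dehydrogenase 4 were bound, all from divergent layouts: Fum1 through the peak it shares with ND-ASHI, Idh3g, a subunit of isocitrate dehydrogenase (239), mAcon1, mitochondrial aconitase (92.9), and Pdhb, a pyruvate dehydrogenase subunit (78.5). Pdhb had no region in replicate 1.

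Genes that maintain or transcribe mitochondrial DNA had 2 of 13 bound, Lon, a mitochondrial protease (646), and mtSSB, the single-strand binding protein (134). Of 8 nuclear regulators 1 was bound, ERR, the estrogen-related receptor (103). With 8 to 15 genes each, the Wilson intervals of these lists run from 2.24% at the lowest lower end to 54.7% at the highest upper end. They take in the 10.9% of all protein-coding genes, apart from the TCA list, whose lower end of 10.9% equals it. In the pooled list the share was 33.0% for the 88 subunit genes, 60.0% for the TCA list (Wilson interval 35.7 to 80.2) and 77.8% for the respiratory genes outside the naming rule (Wilson interval 45.3 to 93.7), against 37.1% of all protein-coding genes. The TCA interval takes in the share of all protein-coding genes. Mitochondrial ribosomal protein genes, the other large group of nuclear genes for mitochondrial proteins, had a region in replicate 3 at 65.8% and in replicate 1 at 24.7% of 73 genes. Cytosolic ribosomal protein genes had one at 91.3% and 57.6% of 92. Over all protein-coding genes the shares were 46.0% and 26.6%. Like the subunit genes, the mitochondrial ribosomal protein genes stood above that share in replicate 3 and below it in replicate 1.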

How the data were processed

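Regions were deposited by the authors as narrowPeak lists on dm6. Per the notes deposited with the lists, each derives from ChIP reads, of 1 replicate or pooled, and a control file not analysed here; the IDR set comes from these lists. Aligner, caller and IDR threshold: not given in the sources used here. A region has a signal value, a score as deposited by the authors with no stated scale, a −log10 q-value as deposited, and a summit offset. Lists on dm3 were not used here. No library was grouped beyond the single group of the labels, and p-values were not computed.

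Start sites are the 5′ ends of all transcripts in the Ensembl release 115 annotation, on 7 arms, without transposable elements. Distances run from the summit to the nearest own start, and where several summits lay within 500 bp the highest signal was used. Positions count from 1. All regions lay within the Release 6 genome (0 outside). Each set of top-ranked regions had as many regions as the IDR set.

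The members and lists were chosen with earlier results of these data known. List names were matched by symbol or, for 3 of them, through the synonyms of a RefSeq table; 7 assembly factor names and 1 regulator name were not matched, and 1 name was already a member. Named genes are the bound members, up to 20 others by pooled signal, and up to 4 bound genes of each other list; further members were named after their values were seen, to describe each complex. Words were counted once per window, both strands as 1. Counting and word search were tested on simulated data. Python 3.11.15, pandas 2.3.3 and scipy 1.17.1 were used.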

Additional observations from a re-analysis of the deposited data

How the results depend on the processing

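The count of 5 bound subunit genes was 4 with a window of 250 bp, 6 with 1000 bp, and 4 to 6 in the top-ranked regions of replicate 1 or replicate 3 alone. It fell to 2 in the upper 50% of IDR peaks by signal, to 3 when a region had to overlap the start itself, and to 2 when genes with a nearer neighbouring start were left out. It was 5 with the top-ranked pooled regions, the gene's 5′ end alone, or without like-named genes under either of 2 rules, the wider of which was chosen after seeing the data. The count of 29 genes with a pooled region ran from 15 to 50 in the whole list of replicate 1 or replicate 3 alone, and was 7 at a −log10 q-value of at least 2; the median signal of 44.2 was 20.2 to 21.6 there, on each list's own scale. Limits of 500 and 2000 bp on divergent spacing, chosen after seeing the data, gave 39 and 50 divergent genes in place of 44, and 5 bound ones under both. At 500 bp ND-ASHI was counted only through its pair of starts 164 bp apart, which its peak does not lie between. The pair around its peak is 522 bp apart and fails that limit. Of 25 named members 2 changed call: ND-51 was not among the top-ranked regions of replicate 1, and ND-ASHI fell outside 250 bp. The other results run under alternatives stayed within 1.5 times of their value, and the replicate coefficient was run under none. No paired analysis was possible because there is 1 group.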
